A study of Mus musculus with 6 samples.

Results

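B cells that carried a nonproductive kappa light chain contig beside a productive light chain were examined in the spleens of 1 heterozygous 564Igi mouse and 1 wild-type mouse. A nonproductive contig is here an assembled V-J transcript that was not marked productive, that is, as encoding a full chain. Such a contig can have a lost reading frame or a stop codon, but for most contigs the reason was not established. Cells were chosen by rule. A barcode counted as a B cell when the B cell receptor library of its mouse called it a cell and the T cell receptor library did not. It was kept when it held a high-confidence kappa contig of at least 2 unique molecular identifiers (UMIs, counts of captured RNA molecules), with a named V and J gene and not marked productive, together with a productive high-confidence light chain contig. The rule found 56 cells in 564Igi and 630 in WT, 686 of the 10053 B cells with a productive light chain and of 10340 B cells in all. These cells are called member cells below, and the B cells with a productive light chain and no such contig, 3599 in 564Igi and 5768 in WT, are called non-member cells.

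The 564Igi mouse was heterozygous for the kappa allele Igktm1(Igk564)Tik and the heavy chain allele Ightm1(Igh564)Tik on the B6.129S4(Cg) background, that is, for rearranged heavy and kappa genes of an autoantibody inserted in the Igh and Igk loci. The WT mouse was C57BL/6JRj. Erythroid cells positive for Ter-119 were removed from the splenocytes of both mice, and no treatment, age or sex is used here. With 1 mouse per group no difference between mice could be tested, and no p-value is given. Intervals are 95% intervals, exact for shares and of Newcombe's form, built from the exact limits, for differences between shares. Those of medians are order-statistic intervals over cells. All of them cover only the number and spread of cells or chains within a mouse, not variation between animals. The B cell tables held 747499 UMIs in 564Igi and 927382 in WT.

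A mouse kappa chain is made by joining 1 of many IGKV genes to IGKJ1, IGKJ2, IGKJ4 or IGKJ5 on chromosome 6, while IGKJ3 is not functional. A cell can rearrange the same allele again with a V gene farther upstream and a J gene farther downstream, so that early joins tend to use IGKJ1 and late joins IGKJ5. This process, known as receptor editing in cells with an autoreactive receptor, can run through both kappa alleles before a cell turns to the lambda locus. A join that fails leaves a nonproductive allele behind, which may still be transcribed, and messages with an early stop codon are known to be degraded by nonsense-mediated decay. In the mm10 assembly the J genes lie at chr6:70722562-70722599 (IGKJ1), chr6:70722916-70722954 (IGKJ2), chr6:70723548-70723585 (IGKJ4) and chr6:70723886-70723923 (IGKJ5), by the RefSeq annotation of GRCm38.p6, and the constant gene IGKC lies at chr6:70726435-70726754.

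All 56 nonproductive contigs of 564Igi and all 631 of WT were deposited as full length and carried IGKC, and 1 WT cell held 2 of them. No CDR3, the junction that the V and J genes form, was given for 52 of 56 contigs in 564Igi and 603 of 631 in WT. The remaining 4 and 28 contigs had a CDR3 but were still deposited as not productive. Those without a CDR3 were deposited with no call on productivity. Of the 28 in WT, 6 had a stop codon inside the CDR3. The reading frame was taken from the first base of the deposited CDR3. In the IGKV12-44 sequence the bases that open the IGKV12-46 CDR3s begin further in, out of that frame. Its stop codon therefore depends on where the CDR3 was set to begin. The capitals mark the stop codon in the deposited frame of 5 of the 6:

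IGKV6-20 with IGKJ5: tgtggacagagttacagcTAGctcacgttc
IGKV6-23 with IGKJ2: tgtcagcaatatagcagcTAGtacacgttc
IGKV8-30 with IGKJ1: tgtcagcaatattatagcTAGtggacgttc
IGKV8-30 with IGKJ5: tgtcagcaatattatagcTAGctcacgttc
IGKV12-44 with IGKJ5: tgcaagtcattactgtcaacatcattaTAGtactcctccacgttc

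A further group of CDR3s was unusually long and had no stop codon. Of the 28 WT contigs with a CDR3, 10 had at least 19 codons and no stop, as did 1 of 4 in 564Igi. IGKV4-92, which was found in no productive high-confidence contig of at least 2 UMIs in either mouse, gave 6 of these 11. The capitals mark the 8 bases that most often open a productive WT kappa CDR3 (1771 of 6958 chains, 25.5%). In these contigs the 8 bases began at base 30 of the deposited CDR3, out of frame with its first base.

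IGKV4-92 with IGKJ5 in 564Igi: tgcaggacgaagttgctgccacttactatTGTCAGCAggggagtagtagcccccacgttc
IGKV4-92 with IGKJ5 in WT: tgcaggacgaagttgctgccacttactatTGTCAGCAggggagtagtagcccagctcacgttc
IGKV6-17 with IGKJ5 in WT: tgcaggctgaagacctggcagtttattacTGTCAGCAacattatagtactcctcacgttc

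The other 12 WT contigs with a CDR3 had fewer than 19 codons and no stop, and 7 of them used IGKV4-68. In these 12 the CDR3 alone gives no reason for the deposited call, and the rest of the contig was not analysed here. Few of the nonproductive contigs shared both V and J with a productive light contig of the same cell, 2 of 56 in 564Igi and 1 of 631 in WT. The contigs were also diverse, with 54 distinct combinations of V, J and contig length in 564Igi and 547 in WT.

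Barcodes called as T cells, which make no kappa chain, were used to look at the background from free RNA. Barcodes called in both libraries (373 in 564Igi, 345 in WT) had been left out first. Such barcodes can hold T cells with much light chain RNA, so the shares below can understate the background. Under the same filter, 1 of 4573 T cell barcodes in 564Igi (0.0219%) and 0 of 3263 in WT (exact interval up to 0.113%) held a nonproductive kappa contig. A productive light contig was held by 3.11% in 564Igi and 2.42% in WT. The light chain contigs of those T cell barcodes had medians of 1 UMI in 564Igi and 3 UMIs in WT. The mice shared 30 B cell barcodes by sequence, and none was a member cell in both.

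The share of B cells with a nonproductive kappa contig was lower in 564Igi than in WT. It was 1.53% (1.16 to 1.99; 56 of 3655 cells) in 564Igi and 9.85% (9.13 to 10.6; 630 of 6398) in WT, a difference of -8.31 percentage points (-9.16 to -7.46). Light chains had fewer UMIs in 564Igi, with a median of 18 in the kappa chains of non-member cells against 42 in WT, so each cell was also thinned to 10 light chain UMIs. The shares were then 1.5% in 564Igi and 7.29% in WT, after 648 and 221 cells with fewer UMIs had been left out.

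Most 564Igi cells carried a single kappa chain, IGKV4-59 joined to IGKJ5, whose CDR3 was primary (the light contig with most UMIs) in 3294 cells. It is the candidate for the knocked-in light chain, chosen by its frequency, since the labels give no sequence. Cells with this chain in any productive contig had a nonproductive kappa contig in 1.21% (0.875 to 1.64; 42 of 3464). In the 191 564Igi cells without it the share was 7.33% (4.07 to 12.0; 14 cells), against 9.85% in WT. That difference of -2.52 points (-5.87 to 2.20) was not distinguishable from 0 at this number of cells. The 191 cells held 52 whose primary chain was lambda, and these gave 6 of the 14. The other 139 had a kappa primary chain and a share of 5.76% (2.52 to 11.0; 8 cells). The share was 8.97% in the kappa cells of WT, a difference of -3.21 points (-6.54 to 2.11). Of these 8 cells, 7 had as primary chain a near copy of the candidate, with the same V and J genes and few mismatches. Among all 564Igi cells with such a primary chain, 7 of 29 (24.1%, 10.3 to 43.5) had a nonproductive kappa contig. The 5.76% thus rests mostly on near copies, and a difference from WT in cells with an unrelated kappa chain was not tested. Taken by the primary chain alone, 8 of 273 kappa cells of 564Igi with another primary chain (2.93%, 1.27 to 5.69) had a nonproductive kappa contig. That share was below the 8.97% of WT kappa cells by a difference of -6.04 points (-7.86 to -3.18), so the result without the candidate depends on how those cells are chosen.

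Cells whose primary light chain was lambda are called lambda cells, and the others kappa cells. Nonproductive kappa contigs were found in 10.2% (4.78 to 18.5; 9 of 88) of lambda cells and 1.32% (0.970 to 1.75; 47 of 3567) of kappa cells in 564Igi. In WT they were found in 20% (16.6 to 23.7; 102 of 511) of lambda cells and 8.97% (8.25 to 9.73; 528 of 5887) of kappa cells. The differences were 8.91 points (3.45 to 17.2) in 564Igi and 11.0 points (7.53 to 14.8) in WT. These shares were not measured alike, because the deposited confidence flag followed the UMI ratio in kappa cells. The lowest nonproductive contig in kappa cells had 0.20 of the UMIs of the primary chain in both mice, while in lambda cells the lowest had 0.0149 in 564Igi and 0.0500 in WT. Of the nonproductive contigs of at least 2 UMIs that lacked the flag in kappa cells, 12 of 13 in 564Igi and 499 of 505 in WT were under 20% of the primary chain.

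Holding lambda cells to the same 20% left 5.68% (1.87 to 12.8; 5 cells) in 564Igi and 11.4% (8.73 to 14.4; 58 cells) in WT. The excess of lambda over kappa cells was then 4.36 points (0.528 to 11.5) in 564Igi and 2.38 points (-0.344 to 5.54) in WT. With the flag ignored for all contigs, the WT shares were 20.5% in lambda cells and 17.1% in kappa cells, 3.44 points apart (-0.119 to 7.33). In WT, a higher share in lambda cells was therefore not detectable once both kinds of cell were held to 1 limit. In 564Igi the share without the flag was 11.4% in lambda cells and 1.63% in kappa cells, but after thinning the difference with the flag was 3.42 points (-0.109 to 10.5). IGLV1, the most used lambda V gene, was primary in 77.8% of member and 72.2% of non-member lambda cells in 564Igi and in 68.6% and 60.1% in WT. IGLV2 was primary in 11.1% and 17.7% in 564Igi and in 19.6% and 27.9% in WT, and IGLV3 in 11.1% and 10.1% and in 11.8% and 12%. IGLJ1 was the most frequent J gene, in 55.6% of member and 54.4% of non-member lambda cells in 564Igi and in 57.8% and 53.8% in WT, and every interval for the V and J genes, IGLJ2 and IGLJ3 included, contained a difference of 0.

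**Figure D1:**
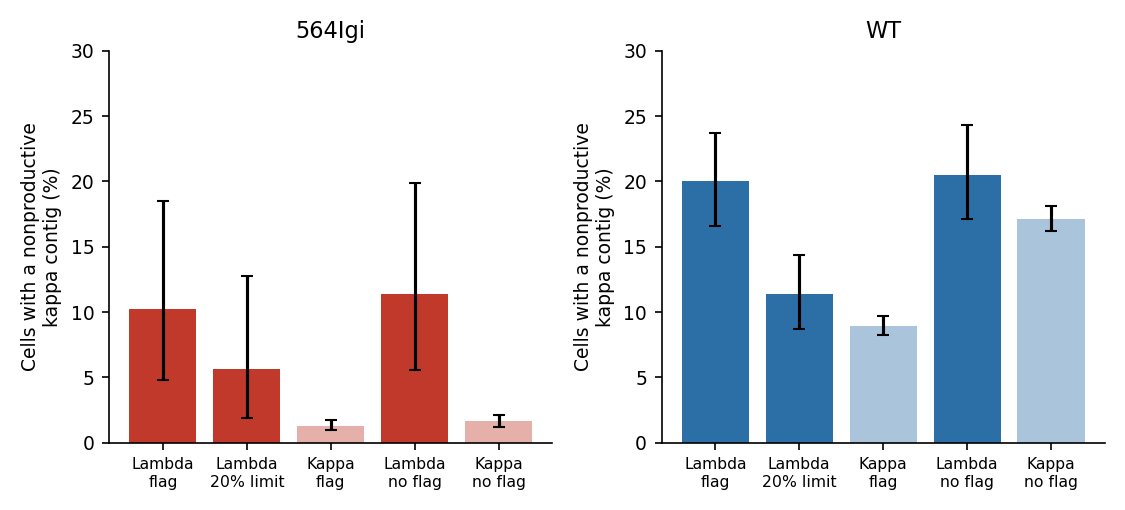
Percentage of cells (y axis) with a nonproductive kappa contig, in lambda cells (dark bars) and kappa cells (pale bars) of 564Igi (left) and WT (right), with the confidence flag required, with lambda cells held to 20% of the primary UMIs, and without the flag. Error bars are exact 95% intervals; in WT the lambda bar falls to 11.4% under the 20% limit, beside 8.97% in kappa cells, and the kappa bar stands at 17.1% without the flag.

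J gene use differed between nonproductive and productive chains in WT. IGKJ4 or IGKJ5, the downstream J genes, were used by 48.0% (44.1 to 52.0; 303 of 631) of nonproductive chains and by 38.8% (37.5 to 40.2; 2081 of 5359) of primary productive kappa chains of non-member cells. The difference was 9.19 points (5.01 to 13.4). The nonproductive set includes chains of lambda cells, and with those of kappa cells only it was 5.87 points (1.37 to 10.4). By single gene, IGKJ1 made up 28.2% of nonproductive and 30.5% of productive chains, IGKJ2 23.8% and 30.7%, IGKJ4 19.3% and 14.0%, and IGKJ5 28.7% and 24.8%. The difference was -6.92 points (-10.4 to -3.20) for IGKJ2 and 5.34 points (2.18 to 8.77) for IGKJ4, whereas the interval for IGKJ1 included 0. The productive kappa chains of the member cells themselves used IGKJ4 or IGKJ5 in 38.4%, close to the 38.8% of non-member cells. No nonproductive or productive kappa chain carried IGKJ3.

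The downstream J genes were most frequent in lambda cells. In WT lambda cells 65.0% (55.0 to 74.2; 67 of 103) of nonproductive kappa chains used IGKJ4 or IGKJ5, against 44.7% (40.4 to 49.1; 236 of 528) in kappa cells, a difference of 20.4 points (9.42 to 30.4). IGKJ5 alone accounted for 49.5% in lambda cells and 24.6% in kappa cells. Unlike the share of cells, this difference stayed close with lambda cells held to the 20% limit, at 63.8% against 44.7%, or 19.1 points (4.74 to 32.0). Productive kappa chains that WT lambda cells carried beside their lambda chain also used IGKJ4 or IGKJ5 often, in 58.5% (76 of 130), and the nonproductive chains of lambda cells did not differ clearly from them (6.59 points, -6.60 to 19.4).

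**Figure D2:**
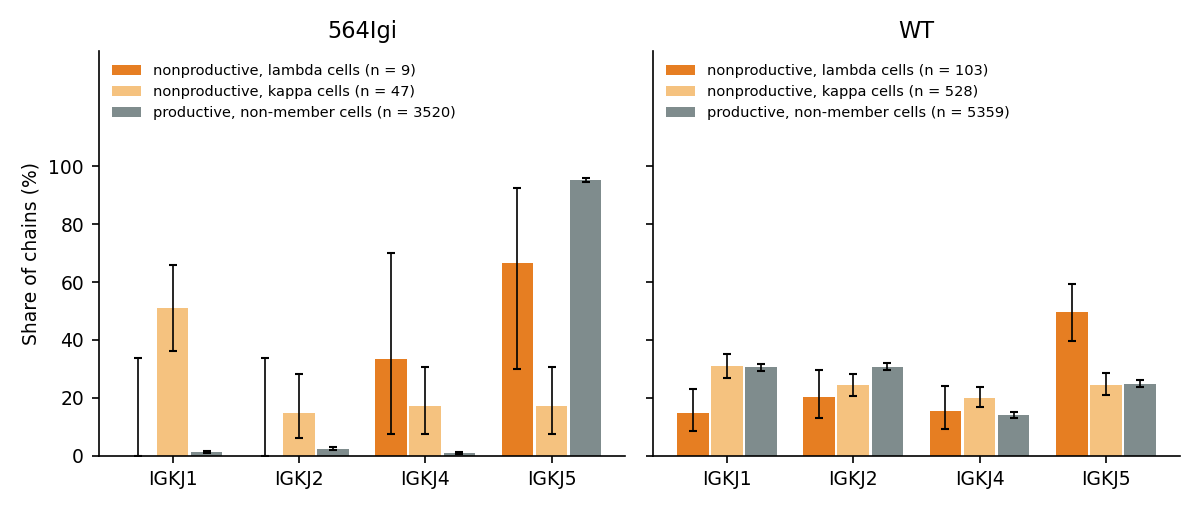
Percentage of kappa chains (y axis) that used each J gene in nonproductive chains of lambda cells (orange), nonproductive chains of kappa cells (light orange) and primary productive chains of non-member cells (grey), in 564Igi (left) and WT (right). Error bars are exact 95% intervals; in WT, IGKJ5 stands at 49.5% in lambda cells and near a common level of 24.6% and 24.8% in the other sets.

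Within WT kappa cells, IGKJ4 or IGKJ5 were found in 39.1% of nonproductive chains of cells with a productive IGKJ1 chain, in 45.0% with IGKJ2, in 46.9% with IGKJ4 and in 50.4% with IGKJ5. Cells with IGKJ5 stood 11.3 points above cells with IGKJ1, with an interval that just included 0 (-0.246 to 22.5). Lambda cells stood 14.7 points (1.49 to 27.2) above the cells with a productive IGKJ5 chain.

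**Figure D3:**
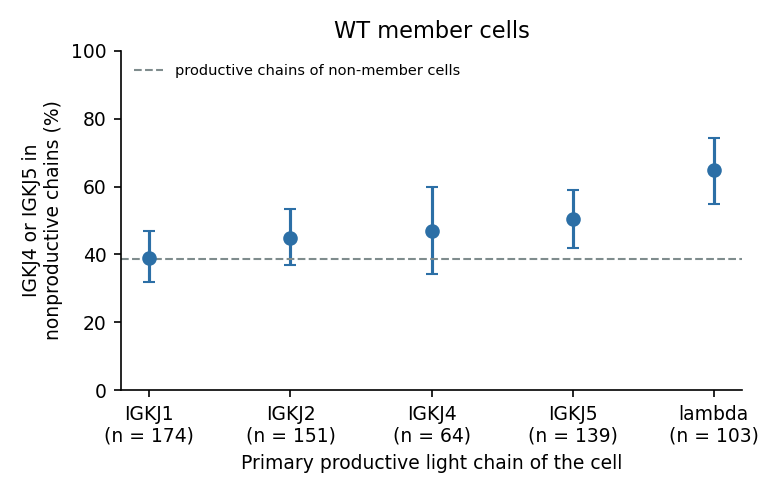
Percentage of nonproductive kappa chains with IGKJ4 or IGKJ5 (y axis) in WT member cells, by the J gene of the primary productive kappa chain or by a lambda primary chain (x axis), with exact 95% intervals. The points run from 39.1% beside IGKJ1 up to 65.0% in lambda cells, and the dashed line marks the 38.8% of productive chains of non-member cells.

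In 564Igi all 9 nonproductive chains of lambda cells used IGKJ4 or IGKJ5 (66.4 to 100), 3 of them IGKJ4 and 6 IGKJ5, against 16 of 47 (34.0%, 20.9 to 49.3) in kappa cells. Over all member cells of 564Igi, 24 of 56 nonproductive chains (42.9%, 29.7 to 56.8) used IGKJ1, against 28.2% in WT. All 47 kappa member cells of 564Igi had a primary productive chain with IGKJ5. Nonproductive chains used IGKJ4 or IGKJ5 in 44.6%, against 96.2% of productive chains of non-member cells, of which the candidate chain made up most. Among the 265 non-member kappa cells of 564Igi with another primary chain, the share of IGKJ4 or IGKJ5 was 49.4%. With all cells of the candidate light chain left out, the difference between nonproductive and productive chains was 0.164 points (-30.1 to 24.8), so its direction in 564Igi rests on that chain.

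The V genes of nonproductive chains were spread over the locus, with 29 distinct genes in 564Igi and 83 in WT. In WT, 60 IGKV genes had at least 20 chains among the nonproductive or the productive set, and 10 of them (16.7%) had exact intervals that did not overlap. Of these, 6 (10.0%) were higher among nonproductive chains and 4 (6.67%) were lower. IGKV1-135, a V gene near the far end of the locus, had the largest share. It lies at chr6:67609745-67610508, 3112 kb upstream of IGKJ1, and gave 84 of 631 nonproductive chains (13.3%, 10.8 to 16.2) against 248 of 5359 productive chains (4.63%, 4.08 to 5.22). The others that were higher were IGKV8-16 (3.96% of nonproductive and 0.131% of productive chains), IGKV5-43 (3.65% and 1.42%), IGKV8-19 (2.85% and 0.821%), IGKV4-68 (2.69% and 0.746%) and IGKV2-137 (3.01% and 1.34%). IGKV8-16 had 25 nonproductive and 7 productive chains. It thus reached the minimum of 20 only through the set where it was high, and its place among the 6 follows in part from that rule. The lower ones were IGKV10-96 (1.58% of nonproductive and 5.45% of productive chains), IGKV8-24 (0.634% and 4.46%), IGKV1-117 (1.90% and 5.21%) and IGKV1-110 (0.634% and 3.68%). The count of genes depended on what was compared. It was 6 (5 higher, 1 lower) when each combination of V, J and contig length counted once, and 5 (3 higher, 2 lower) against the productive kappa chains of the member cells themselves.

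Read per gene, nonproductive chains made up 8.32% of all kappa chains of WT B cells and a median of 6.16% over the 72 IGKV genes with at least 20 chains. IGKV8-16, at chr6:70386672-70387238 and 335 kb from IGKJ1, was the gene among these 72 in which nonproductive chains outnumbered productive ones, with 25 of 39 chains (64.1%, 47.2 to 78.8). IGKV5-45 followed with 15 of 35 (42.9%). IGKV10-95, with fewer than 20 chains, had 10 of 18. All 12 IGKV4-92 chains of WT and all 3 of 564Igi were nonproductive; this gene lies at chr6:68755038-68755593 and RefSeq lists it as a V segment. At the other end, 3 of the 72 genes had no nonproductive chain, IGKV4-74 (0 of 53, with an exact interval up to 6.72%), IGKV4-80 (0 of 47, up to 7.55%) and IGKV4-63 (0 of 26, up to 13.2%). IGKV15-103 had 1 of 88 (1.14%) and IGKV8-24 4 of 302 (1.32%).

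IGKV1-135 also had a J preference of its own. It was joined to IGKJ1 in 49 of 84 nonproductive chains (58.3%, 47.1 to 69.0), against 143 of 248 productive chains of the same gene (57.7%, 51.2 to 63.9) and 129 of 547 nonproductive chains of other V genes (23.6%, 20.1 to 27.4). The difference in IGKJ1 between nonproductive and productive chains of this gene was 0.672 points (-12.2 to 13.1). It was -8.76 (-18.3 to 2.50) for IGKJ2, 2.67 (-3.93 to 11.5) for IGKJ4 and 5.41 (-2.50 to 15.3) for IGKJ5, and each interval included 0. Of the remaining WT genes with many nonproductive chains, IGKV17-121 had 25, IGKV17-127 18, and IGKV5-48 and IGKV9-120 17 each, and none of these 4 was apart from its productive share.

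By family, 16 had at least 20 WT chains in either set and 6 of them (37.5%) were apart. IGKV1 (19.2% of nonproductive and 14.8% of productive chains) and IGKV5 (9.03% and 4.74%) were higher. IGKV1-135 alone gave 84 of the 121 nonproductive and 248 of the 792 productive IGKV1 chains. IGKV1-117 and IGKV1-110 of the same family were lower, so the IGKV1 value is not a trait of the whole family. IGKV6 (9.19% and 13.0%), IGKV12 (4.75% and 7.99%), IGKV10 (3.49% and 6.62%) and IGKV14 (2.38% and 4.48%) were lower. IGKV4 (14.1% and 11.8%), IGKV8 (10.9% and 10.1%), IGKV17 (6.81% and 4.98%), IGKV3 (6.18% and 7.67%), IGKV2 (4.12% and 3.04%) and IGKV9 (3.80% and 3.73%) overlapped. Position along the locus, cut into 3 equal stretches, gave no difference clear of 0. The stretch farthest from the J genes held 37.2% of nonproductive and 33.9% of productive chains in WT (3.37 points, -0.622 to 7.48), and without IGKV1-135 27.6% and 30.7% (-3.05 points, -6.98 to 1.09).

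**Figure D4:**
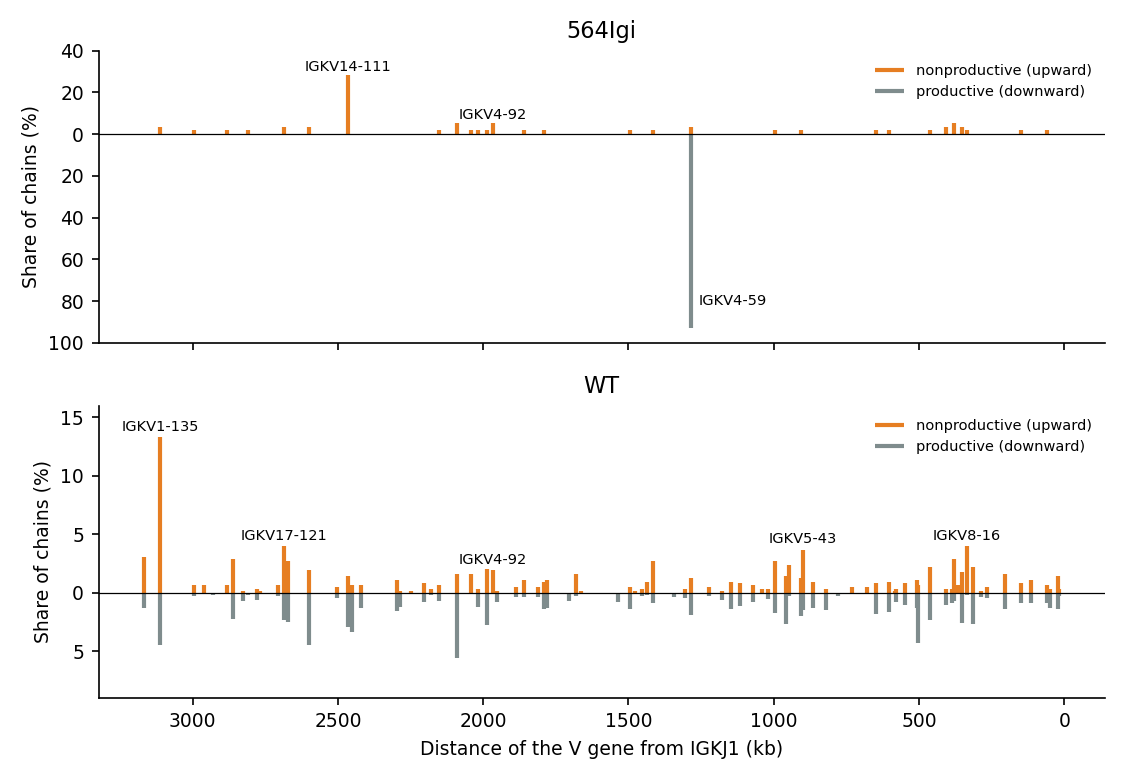
Percentage of kappa chains from each IGKV gene (y axis), by its distance from IGKJ1 in kb (x axis), for nonproductive chains (orange, upward) and all productive chains (grey, downward) in 564Igi (top) and WT (bottom, on its own scale). IGKV14-111 stands out in 564Igi at 28.6% and IGKV1-135 in WT at 13.3%, and IGKV4-59 makes up 92.9% of productive chains in 564Igi.

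In 564Igi the most frequent V gene of nonproductive chains was IGKV14-111, at chr6:68256404-68256869 and 2466 kb from IGKJ1. It gave 16 of 56 nonproductive chains (28.6%, 17.3 to 42.2) in 564Igi, against 9 of 631 (1.43%, 0.654 to 2.69) in WT and against 0.284% of the productive chains of 564Igi non-member cells. With fewer than 20 chains in either set the gene fell outside the comparison of V genes between the mice, in which 0 of 4 genes (0%) were apart. With a minimum of 10 chains it was apart, but it reached that minimum only through 564Igi, the set where it was high. That call therefore follows in part from the rule and adds no support to the count. The next genes in 564Igi, IGKV10-96, IGKV4-92 and IGKV8-19, gave 3 chains each, and IGKV1-117, IGKV1-135, IGKV17-121, IGKV4-59, IGKV6-17 and IGKV8-21 gave 2 each. The values of IGKV14-111 that follow were looked at because of this count, after it had been seen.

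Of the 16 IGKV14-111 chains, 11 used IGKJ1, 3 IGKJ4 and 2 IGKJ5. Without this gene, IGKJ1 made up 32.5% of nonproductive chains in 564Igi and 28.1% in WT, and the mice no longer differed clearly (4.36 points, -10.0 to 21.4). The 11 contigs with IGKJ1 were 499 to 582 bases long, 5 of them up to 504 bases and 6 from 560 bases, and none had a CDR3.

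All 16 cells had IGKV4-59 with IGKJ5 as their primary productive chain. Its CDR3 was the candidate sequence in 9 of them and a near copy, with 1 to 5 mismatches, in 7, whereas it was a near copy in 0 of the other 31 kappa member cells (3 cells would be 9.68%). Near copies were primary in 22 of 3520 kappa non-member cells (0.625%). They were also primary in 45 of 5887 kappa cells of WT (0.764%, 0.558 to 1.02), a mouse without the knocked-in gene. The near copy rule therefore also takes in chains that do not come from the candidate. The sequences are given because they show how far these chains stand from the candidate. Capitals mark the bases that differ, and positions are counted from 1 at the 5′ end of the CDR3, with the candidate's base first.

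candidate: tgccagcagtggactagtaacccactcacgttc
T10A, 1 cell: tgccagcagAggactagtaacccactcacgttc
T15G, 1 cell: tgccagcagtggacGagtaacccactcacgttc
T18A, 2 cells: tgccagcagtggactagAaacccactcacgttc
C3T, 1 cell: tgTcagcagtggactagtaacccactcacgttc
A5T, C21A and C22T, 1 cell: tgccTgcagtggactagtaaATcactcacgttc
A8G, A13G and A16G, 1 cell: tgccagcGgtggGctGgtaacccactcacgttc

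The heavy chains of these cells also stood apart. The candidate heavy chain is the most frequent heavy CDR3 of 564Igi. Of the 10 IGKV14-111 cells with a heavy chain, 2 had the candidate and 8 a near copy of it, in 8 distinct sequences, against 15 candidates and 0 near copies among the other 37 member cells with a heavy chain. Heavy near copies were matched on the CDR3 alone, without the V gene. Those in cells with an IGKJ4 contig were assigned IGHV1-64, and the others IGHV1-53. Read the other way, an IGKV14-111 nonproductive contig was found in 8 of 28 cells (28.6%, 13.2 to 48.7) whose heavy chain was a near copy of the candidate. It was found in 2 of 1708 cells (0.117%) with the candidate itself and in 0 of 1590 with another heavy chain, which allows up to 0.189%.

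A switched constant gene, the mark of a cell that has left IgM and IgD, was found in 5 of these 10 cells (50.0%, 18.7 to 81.3) and in 1 of 35 other member cells (2.86%). Member cells of 564Igi as a whole were switched in 13.3% (5.05 to 26.8; 4 IGHG2B and 2 IGHG2C of 45 cells), against 0.875% (28 of 3200) of non-member cells. In WT the shares were 0.224% (1 of 447, with IGHA) and 0.620% (25 of 4035).

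IGKV14-111 contigs were also present outside the rule. In 9 further 564Igi B cells an IGKV14-111 contig with IGKJ1 had 10 to 297 UMIs and lacked the confidence flag, and in all 9 it was under 20% of the primary chain. Each had IGKV4-59 with IGKJ5 as primary chain, the candidate in 5 and a near copy in 4, and 7 of the 9 were cells with over 1000 UMIs of that chain, of 44 such cells in 564Igi. Their heavy chain was the candidate in 6 and a near copy in 2, and 2 were switched. Barcodes not called as cells held 53 nonproductive IGKV14-111 contigs in 564Igi, 47 of them with IGKJ4 at a median of 1 UMI, and 2 in WT. The CDR3 of 2 IGKJ4 member contigs was also found in 3 productive contigs of called 564Igi barcodes, which reached 5866 UMIs, and in 18 productive contigs of uncalled barcodes at 1 UMI each. The part of such RNA in the 3 IGKJ4 chains was not tested. Uncalled barcodes held 6 nonproductive IGKV14-111 contigs with IGKJ1.

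In WT, nonproductive chains were captured with fewer UMIs than the productive chain in most cells. The median was 12 UMIs (9 to 17) for nonproductive and 16.5 (14 to 24) for primary productive chains in 564Igi. In WT it was 13 (12 to 13) and 36 (33 to 39). The productive chain had more UMIs in 60.7% (46.8 to 73.5) of member cells in 564Igi, an interval that held 50%, and in 90.8% (88.3 to 92.9) in WT.

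Among kappa cells the median ratio of nonproductive to primary productive UMIs was 0.931 (0.636 to 1.11) in 564Igi and 0.358 (0.333 to 0.375) in WT. The 2 intervals do not overlap, although each is a value of 1 mouse. The ratio was 1.13 in the 564Igi cells with IGKV14-111 and 0.640 (0.475 to 1.03) in its other kappa member cells, still above WT. Ratios in kappa cells are cut off at 0.20 by the confidence flag, and without the flag the medians were 0.638 (0.438 to 1) in 564Igi and 0.205 (0.192 to 0.214) in WT.

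Lambda cells had median ratios of 0.238 in 564Igi and 0.216 in WT. In WT these values fall below those of kappa cells, but with lambda cells held to 20% of the primary UMIs their median was 0.325 (0.273 to 0.381), which overlaps the 0.358 of kappa cells. Primary productive chains in member cells had a median of 53 UMIs in lambda cells and 33 in kappa cells of WT.

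**Figure D5:**
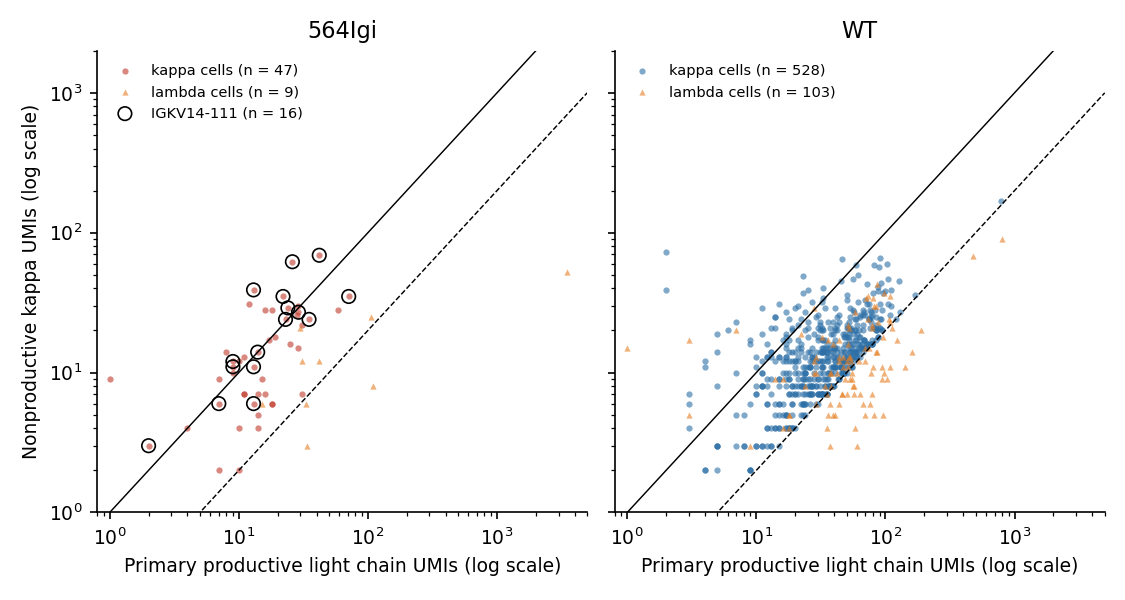
UMIs of the nonproductive kappa contig (y axis, log scale) against UMIs of the primary productive light chain (x axis, log scale) in each member cell of 564Igi (left) and WT (right), kappa cells as circles and lambda cells as triangles. The solid line marks equal UMIs and the dashed line 20%; kappa cells end at the dashed line, lambda cells lie on both sides of it, and the ringed IGKV14-111 cells lie near the solid line.

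For comparison, non-member cells with 2 productive kappa chains were taken as pairs, and the lower chain was divided by the higher. In WT the median of this ratio was 0.350 (0.329 to 0.371) in kappa member cells, where the pair is a nonproductive and a productive chain, and 0.547 (0.521 to 0.571) in non-member cells with 2 productive kappa chains. In 564Igi it was 0.636 (0.500 to 0.750) and 0.365 (0.342 to 0.423), so the order was the opposite of that in WT. By J gene, nonproductive chains of WT kappa cells had median ratios to the primary chain of 0.414 (0.377 to 0.472) with IGKJ1, 0.333 (0.294 to 0.405) with IGKJ2, 0.366 (0.333 to 0.404) with IGKJ4 and 0.297 (0.276 to 0.333) with IGKJ5. The intervals of IGKJ1 and IGKJ5 did not overlap, whereas each neighbouring pair in the order of the medians did.

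Productive chains beyond the first were counted among cells whose productive chain had at least 2 UMIs. In WT 12.6% (79 of 629) of member cells had at least 2 productive light chains, against 15.9% (918 of 5766) of non-member cells, a difference of -3.36 points (-6.03 to -0.365). In 564Igi the shares were 5.45% (3 of 55) and 5.43% (195 of 3594). At least 2 productive heavy chains, which doublets can also give, were found in 6.38% of members and 3.45% of non-members in 564Igi and in 9.45% and 7.07% in WT, and both intervals of the difference included 0 (-2.16 to 14.1 in 564Igi and -0.219 to 5.47 in WT).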

How the data were processed

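The 4 V(D)J libraries of 2 mice were used. Gene expression libraries were not used here. The authors deposited contig tables with whole-number read and UMI counts, not normalized, per the file headers. They also deposited contig length in bases (another unit), a confidence flag and gene names. Cell Ranger 3.0.2 and mm10 are named in the submitters' processing notes, with no role. The rule behind the flag is not given. Barcodes called in both tables of a mouse (373 in 564Igi, 345 in WT) were left out, and no doublet caller was run. The primary chain had most UMIs. Near copies had up to 5 mismatches at equal length. Those of the light chain also had to share its V and J genes, and those of the heavy chain did not. A V gene was called when it had at least 20 chains in either set and exact (Clopper-Pearson) 95% intervals that did not overlap. Medians carry binomial order-statistic intervals. Beside a count of 0 stands the share of 3 counts or an exact upper bound. Named genes were all J genes, the 10 IGKV genes with most nonproductive chains per mouse, up to 6 called genes per direction, and families with at least 20 nonproductive chains. Members, lists and comparisons were chosen with earlier results of these data known. Alternatives changed the UMI minimum, the flag, the barcodes, the comparison set and the depth. Coordinates are those of GRCm38.p6 (RefSeq), the assembly behind mm10, 1-based. Software was matplotlib 3.10.9, SciPy 1.17.1, NumPy 2.4.6, pandas 2.3.3 and Python 3.11.15.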

Additional observations from a re-analysis of the deposited data

Results flagged for a closer look

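Several contrasts had opposite signs in the mice, and none of these differences between mice was tested, as each group was 1 mouse. Nonproductive minus productive chains of non-member cells, in percentage points, gave -51.6 in 564Igi and 9.19 in WT for IGKJ4 or IGKJ5, 41.5 and -2.26 for IGKJ1, 10.0 and -6.92 for IGKJ2, and -70.3 and 3.85 for IGKJ5. Against the productive chains of the member cells, IGKJ4 or IGKJ5 gave -55.4 in 564Igi and 9.57 in WT. Member minus non-member cells gave 12.5 in 564Igi and -0.396 in WT for a switched heavy chain, 0.0288 and -3.36 for at least 2 productive light chains, and 6.03 and -0.798 for a nonproductive lambda contig. Within lambda cells, IGLV3 as primary V gene gave 0.985 in 564Igi and -0.216 in WT. The sign is not established for those whose interval included 0: both IGLV3 values (-13.0 to 38.6 in 564Igi, -6.79 to 8.21 in WT), at least 2 productive light chains in 564Igi (-4.36 to 9.72), and in WT the switched heavy chain (-0.762 to 0.644), the nonproductive lambda contig (-2.10 to 0.924) and IGKJ1 (-5.96 to 1.62).

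Contigs outside the rule were counted too. A nonproductive lambda contig was found in 7.14% of 564Igi and 3.02% of WT member cells, against 1.11% and 3.81% of non-member cells. A nonproductive heavy chain contig was found in 1.79% of 564Igi and 5.08% of WT member cells, against 2.33% and 5.44% of non-member cells, and both differences (-0.548 and -0.364 points) had intervals that included 0. Uncalled barcodes of 564Igi held 53 nonproductive IGKV14-111 contigs, against 2 in WT.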

How the results depend on the processing

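Of 193 values under alternatives, 170 stayed within the interval, or for counts within 1.5 times, of the reported value, 22 moved and 1 reversed. The share of member cells in WT was 9.08% at a minimum of 5 UMIs, 17.4% without the confidence flag and 7.29% after thinning, and the difference between mice (564Igi minus WT) was -15.5 points without the flag and -5.79 after thinning. Without the candidate light chain the 564Igi share was 7.33% and that difference -2.52. The late J difference in 564Igi then reversed to 0.164 points and its kappa UMI ratio was 1.22. Its called V genes then numbered 0, and its contigs with a shared V and J made up 0%, as they did at 5 UMIs. Of the 8 kappa member cells left without the candidate, 7 had a near copy of it as primary chain. The lambda minus kappa difference was 3.42 points in 564Igi and 3.33 in WT after thinning, and in WT 3.44 without the flag and 2.38 at 20% of the primary UMIs. WT median UMI ratios were 0.205 in kappa cells without the flag and 0.325 in lambda cells at 20%. Counting distinct combinations gave a late J difference of -29.0 in 564Igi and 6 called V genes in WT, and the member cells' own productive chains gave 5. A minimum of 10 chains gave 2 called genes in 564Igi and 1 between the mice, IGKV14-111, which reached the minimum only through 564Igi. The alternatives on the 20% limit, near copies, IGKV14-111 and part of those on the flag were chosen after seeing the data. The cause of these moves was not tested. V gene orientation was not run, as no strand was at hand. No paired analysis was possible because each group is 1 mouse. The number of cells limits the precision in 564Igi, with 56 members and 9 lambda cells.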
